A study of Mus musculus with 29 samples.

Results

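Expression of the glucocorticoid receptor, of the steroid-activating enzyme Hsd11b1 and of 8 genes known to respond to glucocorticoids was followed in 3T3-L1 cells that had been exposed to a KDM5 inhibitor before differentiation. The 10 genes were Nr3c1, Hsd11b1, Fkbp5, Tsc22d3, Zbtb16, Klf9, Sgk1, Dusp1, Mt1 and Mt2, and each of the 10 was among the 11959 genes with counts. They were chosen by name with earlier results of these data known, and Hsd11b1 was chosen by its higher expression after C70 at day 0. The day 0 comparison of C70 with vehicle is therefore given as a description, without a test. 3T3-L1 is a mouse preadipocyte line that differentiates into fat cells on hormonal induction, and KDM5-C70 (C70) is a chemical inhibitor of the KDM5 histone demethylases, enzymes that remove methyl groups from lysine 4 of histone H3. Both treatment groups were confluent 3T3-L1 cells given either 10 µM C70 or the solvent DMSO (vehicle) from day -2 to day 0, with no inhibitor named in the media after that. All cells received dexamethasone, insulin, isobutylmethylxanthine and a PPARγ agonist from day 0 for 2 days, and then medium with insulin and dexamethasone. RNA was collected at days 0, 1, 2 and 7 from 29 samples in 8 groups, with 3 vehicle samples at days 0, 1 and 2, 4 vehicle samples at day 7, and 4 C70 samples on each day. By this schedule day 0 preceded dexamethasone, and days 1, 2 and 7 lay within it. Because every culture received dexamethasone together with the other agents, their effects cannot be told apart here.

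Glucocorticoids such as cortisol, corticosterone and the synthetic dexamethasone enter cells and bind the glucocorticoid receptor, encoded by Nr3c1. The bound receptor leaves its chaperone complex, enters the nucleus and acts on transcription at glucocorticoid response elements (GREs) or through other transcription factors. In adipose tissue the enzyme encoded by Hsd11b1 regenerates active hormone from inactive 11-keto steroids inside the cell, and glucocorticoids are a standard component of adipogenic induction in culture.

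Total counts were 16320275 to 24037170 per sample. Levels are given as CPM, counts scaled to a common library total after normalization by the trimmed mean of M values (TMM) method. A gene was called when edgeR's quasi-likelihood test gave a Benjamini-Hochberg adjusted P value under 0.05 over all genes and the level was more than 25% above that of the other group. The labels do not say that replicates were separate cultures, so P values measure the spread between these samples, which may be technical. Of the adipocyte markers fixed for the check of cell type, 10 of 10 had counts, and their summed level was 1304 to 1427 CPM in vehicle at day 0 and 28984 to 34533 CPM at day 7. Of 9 preadipocyte and fibroblast markers 8 had counts, and their sum was 37745 to 38588 CPM in vehicle at day 0 and 3379 to 4500 CPM at day 7. None of 4 endothelial and none of 4 epithelial markers was among the genes tested. Vehicle replicate 1 at day 7 lay apart from the other 3 vehicle samples of that day for Hsd11b1 and Mt2. It was also the highest or the lowest of that group for several others of the 10 genes. For several genes, C70 against vehicle at day 7 is therefore also given without it.

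**Figure D1:**
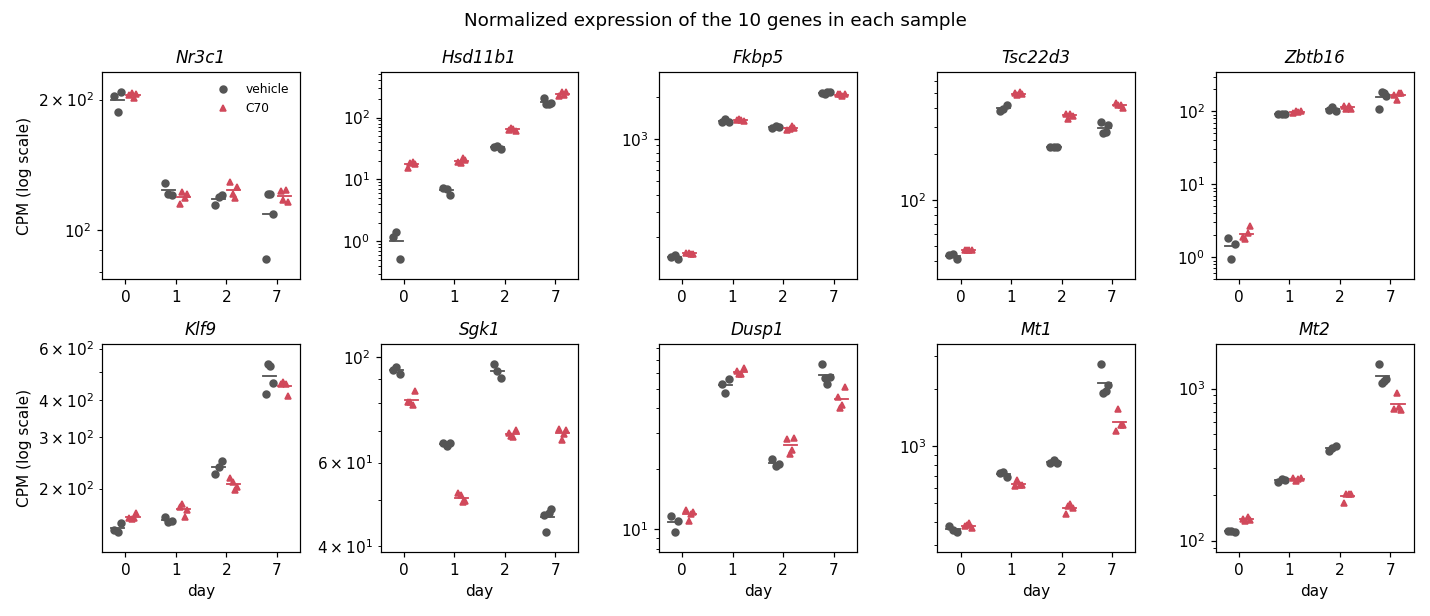
Normalized expression in each of the 29 samples, one panel per gene, with the day on the x axis and CPM on a logarithmic y axis. Grey circles are vehicle samples, red triangles are C70 samples, and short lines are group means. Fkbp5 and Zbtb16 rose together in both treatments at day 1. At day 2 each C70 sample lay below each vehicle sample for Mt1 and for Mt2.

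The receptor gene Nr3c1 (chr18:39410545-39519421, minus strand, GRCm38) was highest before induction and did not pass the test for C70 against vehicle at days 1, 2 or 7. Vehicle samples at day 0 measured 204, 187 and 208 CPM, and C70 samples measured 205, 207, 202 and 206 CPM. At day 1 the vehicle samples were at 129, 121 and 120 CPM and the C70 samples at 115, 122, 119 and 121 CPM. Both groups thus lay well below their day 0 range and overlapped each other. Nr3c1 fell between day 0 and day 1 by 0.69 ± 0.073 in vehicle (log2 fold change ± SE, adjusted P = 8.9e-10, edgeR) and by 0.78 ± 0.064 after C70 (adjusted P = 2.6e-12). Later levels stayed in one band, at 114 to 120 CPM in vehicle and 119 to 129 CPM after C70 at day 2, and 116 to 124 CPM after C70 at day 7. The vehicle samples at day 7 were at 85.5, 121, 121 and 109 CPM, the lowest being replicate 1. On the log2 scale C70 and vehicle differed by -0.05 at day 1 (95% interval -0.19 to 0.09), 0.07 at day 2 (-0.07 to 0.21) and 0.14 at day 7 (0.0037 to 0.27, adjusted P = 0.094, edgeR). Without vehicle replicate 1 the day 7 value was 0.04.

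Hsd11b1 (chr1:193221634-193264075, minus strand) encodes 11β-hydroxysteroid dehydrogenase type 1, the enzyme that reactivates glucocorticoids. Vehicle samples at day 0 were at 1.17, 1.40 and 0.51 CPM, from 29, 27 and 11 counts. The C70 samples were at 15.2, 18.6, 19.01 and 17.7 CPM, from 308 to 432 counts. Every C70 sample was thus far above the vehicle samples, with a log2 fold change of 4.10 ± 0.17 that is the value used to choose the gene. At day 1 the vehicle samples measured 7.35, 7.09 and 5.51 CPM, and the C70 samples measured 19.4, 18.7, 21.9 and 20.3 CPM. At day 2 they measured 33.8, 35.0 and 31.3 CPM against 63.7, 67.0, 66.3 and 60.6 CPM. At day 7 vehicle samples measured 210, 167, 168 and 174 CPM and C70 samples 227, 259, 235 and 255 CPM. The groups did not overlap on days 1, 2 or 7, and the ratio between them was smaller on each later day of these. Hsd11b1 was 3.01-fold higher after C70 at day 1 (adjusted P = 5.2e-12), 1.93-fold higher at day 2 (adjusted P = 2.3e-10) and 1.36-fold higher at day 7 (adjusted P = 1.2e-05, edgeR). Without vehicle replicate 1 the day 7 log2 difference was 0.53 ± 0.057, in place of 0.44 ± 0.072. In CPM the difference of the means was 16.6, 13.4, 31.0 and 64.1 CPM on days 0, 1, 2 and 7.

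The Hsd11b1 mRNA rose from day 1 to day 2 and again to day 7 in both treatments. Ordered by mean, the groups were vehicle day 0, vehicle day 1, C70 day 0, C70 day 1, vehicle day 2, C70 day 2, vehicle day 7 and C70 day 7. Of these neighbours only C70 day 0 and C70 day 1 overlapped. From day 1 to day 2 Hsd11b1 rose 5.02-fold in vehicle and 3.21-fold after C70, and from day 2 to day 7 it rose 5.38-fold and 3.79-fold. The C70 effect was smaller at day 2 than at day 1 by 0.64 ± 0.15 on the log2 scale (adjusted P = 0.0023, edgeR interaction contrast), and smaller at day 7 than at day 2 by 0.51 ± 0.11 (adjusted P = 0.00096). These interactions share their day 2 samples. The summed adipocyte markers were at 1487 to 1541 CPM after C70 and 1304 to 1427 CPM in vehicle at day 0. Single markers went both ways at day 0, with Cebpa higher after C70 (log2 fold change 0.39 ± 0.11). Pparg (-0.50 ± 0.057) and Fabp4 (-0.41 ± 0.085) were lower. The sum was lower after C70 at day 1, at 3511 to 3641 CPM against 5573 to 5897 CPM. It was also lower at day 2, at 14732 to 16345 CPM against 25179 to 26059 CPM. The preadipocyte and fibroblast markers were at 8341 to 9061 CPM after C70 and 5267 to 5465 CPM in vehicle at day 2. In bulk samples like these, fewer cells of a type and less RNA per cell cannot be told apart. Of 5 macrophage markers 1 had counts, Cd68, at 18.7 to 19.8 CPM after C70 and 1.13 to 1.67 CPM in vehicle at day 0. It was at 13.6 to 15.1 CPM against 1.74 to 2.01 CPM at day 1, at 6.35 to 6.94 CPM against 1.33 to 1.75 CPM at day 2, and at 1.06 to 2.79 CPM against 1.92 to 2.69 CPM at day 7, where it was not called. Its log2 difference was 2.90 ± 0.14 at day 1 and 2.06 ± 0.16 at day 2. Of 4 muscle markers 1 had counts, Des, at 8.69 to 10.0 CPM after C70 and 4.18 to 5.61 CPM in vehicle at day 0. It was at 5.45 to 7.24 CPM against 1.83 to 2.58 CPM at day 1, at 4.76 to 5.39 CPM against 3.48 to 3.64 CPM at day 2, and at 35.3 to 43.6 CPM against 40.6 to 50.9 CPM at day 7, where it was not called. The part of these markers in the Hsd11b1 values was not tested. Hsd11b1 overlaps Lamb3 on the opposite strand, which is not among the genes tested, and whether the counting used strand is not stated.

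Among the steroid enzymes and the related receptor listed beside Hsd11b1, 7 of 10 had counts, and none was called higher after C70 on days 1, 2 or 7 by edgeR (1 on each day at an unadjusted P under 0.05, and 0 by DESeq2 or limma voom), beside 13.6%, 16.9% and 14.3% of all genes. Without vehicle replicate 2 or C70 replicate 3 of day 1, 1 was called higher at day 1. Called lower were 1 at day 1, 3 at day 2 and 1 at day 7, where 7.8%, 13.6% and 4.85% of all genes were lower. Hsd17b12, known for its role in fatty acid elongation, was lower at day 1 (log2 fold change -0.37 ± 0.048) and at day 2 (-0.59 ± 0.046). Hsd17b7, which acts in cholesterol synthesis, was lower at day 2 (-0.46 ± 0.074) and at day 7 (-0.40 ± 0.068), and Hsd17b4, a peroxisomal enzyme, was lower at day 2 (-0.41 ± 0.040). H6pd supplies NADPH to 11β-hydroxysteroid dehydrogenase type 1 in the endoplasmic reticulum and was added here after its values were seen. Its difference was 0.00 ± 0.058 at day 0 and 0.31 ± 0.057 at day 1, under the fold change threshold. It was not called at day 2 or day 7. H6pd rose in vehicle from day 2 to day 7 by 0.59 ± 0.056. The list's median log2 fold change of C70 against vehicle was -0.03, -0.23 and 0.01 at days 1, 2 and 7, beside -0.01, 0.00 and 0.00 over all genes. On the same days 8, 8 and none of the 10 adipocyte markers were called lower by edgeR. Of the 8 preadipocyte and fibroblast markers 4, 7 and 8 were called higher, and 1 was called lower at day 1. The part of these markers in the values of the steroid enzymes was not tested.

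C70 against vehicle was called for 2 of the 10 genes at day 1, where 21.4% of all genes were called (13.6% higher and 7.8% lower). At day 2 it was called for 5 of the 10, beside 30.5% of all genes (16.9% higher and 13.6% lower), and at day 7 for 6 of the 10, beside 19.1% (14.3% higher and 4.85% lower). At day 0, used for the choice of Hsd11b1, 8.97% of all genes were called (5.89% higher and 3.09% lower), and no count of the 10 genes is read there. Of the calls among the 10 genes, 1 was higher and 1 lower at day 1, 2 were higher and 3 lower at day 2, and 3 were higher and 3 lower at day 7. Among all genes, 63.6% of the day 1 calls and 74.6% of the day 7 calls were higher, but 50.4% and 60.3% without scaling factors and 50.9% and 60.5% with quantile normalization. Of the 10 genes 7, 5 and 5 lay above 0 at days 1, 2 and 7, with medians of 0.06, 0.02 and 0.02. The calls went both ways on each of these days. The 3 C70 against vehicle comparisons use different samples.

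**Figure D2:**
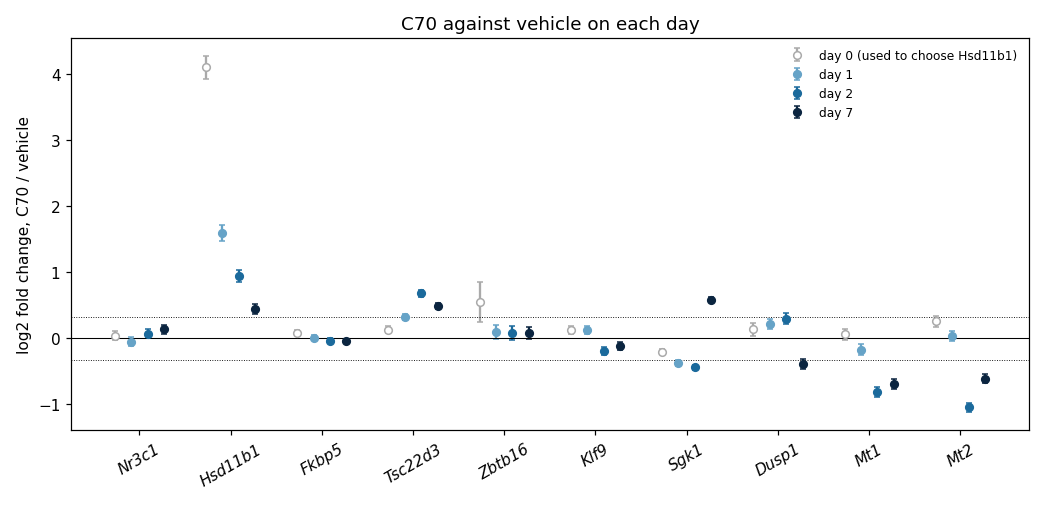
Log2 fold change of C70 against vehicle for each gene, with 1 SE, at day 0 (open circles, the comparison used to choose Hsd11b1) and at days 1, 2 and 7 (filled circles, from light to dark). Dotted lines mark a level 25% above that of vehicle and the inverse ratio; Fkbp5, Zbtb16 and Nr3c1 lay between them at days 1, 2 and 7, Hsd11b1 lay above them on these days, and Sgk1 lay below at days 1 and 2 and above at day 7.

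Fkbp5 and Zbtb16, a pair of widely used reporters of glucocorticoid receptor activity, rose steeply within the first day and did so to nearly the same level in both treatments. Fkbp5 (chr17:28399094-28517527, minus strand) encodes FKBP51, a co-chaperone that lowers the receptor's hormone affinity. Its vehicle samples went from 145, 149 and 139 CPM at day 0 to 1327, 1383 and 1328 CPM at day 1, a 9.32-fold rise (log2 3.22 ± 0.041, adjusted P = 8.6e-32, edgeR). The C70 samples went from 155, 155, 152 and 151 CPM to 1354, 1376, 1357 and 1344 CPM, an 8.85-fold rise. The treatments overlapped at days 1, 2 and 7, and at day 0 each C70 sample was slightly above each vehicle sample. C70 and vehicle differed by 0.01 at day 1 (95% interval -0.06 to 0.08), -0.04 at day 2 (-0.11 to 0.04) and -0.04 at day 7 (-0.10 to 0.03). These intervals exclude the fold change threshold on each of the 3 days. With quantile normalization the sign at day 1 turned, to -0.12 (adjusted P = 0.049, limma). Both treatments rose again from day 2 to day 7, by 0.80 ± 0.036 in vehicle and 0.80 ± 0.033 after C70.

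Zbtb16 (chr9:48654297-48836222, minus strand) encodes the zinc finger transcription factor PLZF. In vehicle it measured 1.81, 0.935 and 1.53 CPM at day 0, from 45, 18 and 33 counts, and 92.0, 92.7 and 92.6 CPM at day 1. After C70 it measured 1.87, 1.76, 2.13 and 2.67 CPM at day 0 and 95.2, 101, 97.4 and 99.8 CPM at day 1. Each C70 sample thus lay slightly above each vehicle sample at day 1. The rise was 63.1-fold in vehicle (log2 5.98 ± 0.19, adjusted P = 1.7e-22) and 45.9-fold after C70 (5.52 ± 0.15, adjusted P = 6.4e-24, edgeR), the largest of the 10 genes in each treatment. Both starting levels rest on few counts, which limits the precision of these ratios. The treatment difference was 0.09 at day 1 (95% interval -0.13 to 0.31), 0.08 at day 2 (-0.14 to 0.29) and 0.08 at day 7 (-0.11 to 0.28), and none passed the test. Vehicle samples at day 7 were at 108, 184, 176 and 160 CPM, and C70 samples at 168, 144, 178 and 176 CPM. Without vehicle replicate 1, the lowest of these, the day 7 difference was -0.05.

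Klf9 (chr19:23141226-23168134, plus strand), a Krüppel-like factor that responds to glucocorticoids and thyroid hormone in many tissues, followed a later course. Vehicle samples were at 144, 142 and 153 CPM at day 0, 160, 154 and 155 CPM at day 1, and 225, 236 and 249 CPM at day 2. They reached 421 to 530 CPM at day 7. The step from day 0 to day 1 was 0.10 ± 0.065 in vehicle and did not pass the test, while Klf9 rose from day 1 to day 2 by 0.60 ± 0.065 and from day 2 to day 7 by 1.03 ± 0.061. After C70 Klf9 was at 157 to 165 CPM at day 0, each sample above each vehicle sample, and at 160 to 178 CPM at day 1. The day 1 difference was 0.12 ± 0.061 (adjusted P = 0.12, edgeR). At day 2 the C70 samples were at 216, 211, 197 and 203 CPM, each below each vehicle sample. That difference was -0.20 ± 0.060 (adjusted P = 0.0077, edgeR), a change under the fold change threshold. From day 1 to day 2 the effect changed by -0.32 ± 0.086 (adjusted P = 0.0084, interaction contrast), also under the threshold. At day 7 C70 samples were at 412 to 460 CPM and overlapped the vehicle samples, and the difference was -0.12 ± 0.055 (adjusted P = 0.095). Without vehicle replicate 1 it was -0.17 ± 0.047 (adjusted P = 0.0036, edgeR), still under the fold change threshold.

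Tsc22d3 (chrX:140539528-140600659, minus strand) encodes GILZ, a glucocorticoid-induced leucine zipper protein that restrains inflammatory signalling. It was induced with Fkbp5 but, unlike it, was then higher after C70. Vehicle samples were at 43.9, 44.5 and 41.2 CPM at day 0 and at 378, 393 and 416 CPM at day 1. The C70 samples were at 47.3, 47.4, 47.3 and 47.4 CPM at day 0 and at 495, 486, 506 and 488 CPM at day 1. At day 2 vehicle measured 223, 222 and 222 CPM and C70 measured 363, 339, 366 and 356 CPM. Each C70 sample lay above each vehicle sample on those days and also at day 7, when vehicle was at 324, 274, 279 and 306 CPM and C70 at 428, 415, 418 and 397 CPM. The difference was 0.32 ± 0.047 at day 1 (adjusted P = 2.6e-06) and just missed the fold change threshold, which was passed when any of 6 single samples was left out. It was 1.60-fold at day 2 (adjusted P = 5.4e-13) and 1.40-fold at day 7 (adjusted P = 2.1e-10, edgeR). The C70 effect was larger at day 2 than at day 1 by 0.36 ± 0.067 (adjusted P = 0.00019, interaction contrast). Tsc22d3 fell from day 1 to day 2 by 0.83 ± 0.051 in vehicle and by 0.47 ± 0.044 after C70.

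Promoter sequences were compared with the GRE consensus (AGAACA, any bases NNN, then TGTTCT) and with its arm AGAACA alone, on either strand. Windows of 250 bases before RefSeq starts (GRCm38.p6) were found for 8 of the 10 genes, 15 windows in all, with Nr3c1 not searched. Among 32851 windows of that length the full consensus was in 3, or 0.00913%, and the arm alone was in 16.1%, the full consensus included. The Sgk1 window at chr10:21993640-21993889 (plus strand), before a start inside the gene, was one of those 3. Its consensus begins 189 bases before the start. The Tsc22d3 sequence at chrX:140600660-140600772 (minus strand), the stretch before the annotated first exon, held the arm. Sgk1 and Tsc22d3 had several windows each. No other Sgk1 window held the full consensus, and no other Tsc22d3 window held the arm. The windows of Hsd11b1, Fkbp5, Klf9 and Dusp1 held neither. A match describes the letters only, and receptor binding was not measured. Both sequences are shown because Sgk1 and Tsc22d3 are the members whose windows held the consensus or whose printed stretch held its arm, with arms in capitals.
Sgk1: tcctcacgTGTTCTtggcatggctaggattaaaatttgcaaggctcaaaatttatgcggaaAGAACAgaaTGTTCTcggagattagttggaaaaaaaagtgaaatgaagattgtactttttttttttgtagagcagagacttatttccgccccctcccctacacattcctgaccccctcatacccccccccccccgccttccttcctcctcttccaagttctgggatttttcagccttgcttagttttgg
Tsc22d3: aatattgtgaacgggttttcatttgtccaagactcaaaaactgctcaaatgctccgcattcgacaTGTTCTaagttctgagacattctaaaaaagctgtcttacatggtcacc

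Sgk1 (chr10:21882184-21999903, plus strand), the serum- and glucocorticoid-regulated kinase that acts on ion channels and transporters, was lower after C70 early and higher late. Vehicle samples measured 93.8, 94.98 and 92.2 CPM at day 0, and C70 samples measured 80.6, 80.4, 79.2 and 84.8 CPM. At day 1 vehicle was between 64.9 and 66.1 CPM and C70 at 51.9, 51.2, 49.5 and 49.9 CPM. At day 2 vehicle was at 96.4, 93.4 and 90.2 CPM and C70 at 69.2, 68.1, 68.0 and 70.1 CPM. All C70 samples were below all vehicle samples on these 3 days. At day 7 the order had turned, with vehicle at 46.5, 42.9, 47.0 and 47.9 CPM and C70 at 70.7, 66.8, 68.9 and 70.3 CPM. C70 against vehicle was -0.37 ± 0.040 at day 1 (adjusted P = 7.1e-09), -0.44 ± 0.039 at day 2 (adjusted P = 6.7e-11) and 0.59 ± 0.038 at day 7 (adjusted P = 2.4e-13, edgeR). The change of the effect from day 2 to day 7 was 1.02 ± 0.054 (adjusted P = 8.2e-15, interaction contrast). In vehicle Sgk1 fell by 1.02 ± 0.040 from day 2 to day 7, whereas after C70 the step was 0.01 ± 0.037 (95% interval -0.07 to 0.08). This small step was -0.17 without scaling factors. Unlike Fkbp5, Sgk1 fell within the first day, by 0.51 ± 0.042 in vehicle and 0.68 ± 0.037 after C70.

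Dusp1 (chr17:26505590-26562128, minus strand) encodes a phosphatase that inactivates MAP kinases and is induced by glucocorticoids and by growth signals. It rose 4.81-fold from day 0 to day 1 in vehicle and 5.11-fold after C70, and then fell 2.44-fold and 2.32-fold from day 1 to day 2. Vehicle samples were at 53.2, 47.7 and 56.0 CPM at day 1, and C70 samples at 61.3, 59.7, 59.4 and 63.8 CPM. At day 2 vehicle measured 22.3, 20.7 and 21.2 CPM and C70 measured 28.1, 23.8, 24.7 and 28.5 CPM. The C70 samples were above the vehicle samples on both days, with differences of 0.22 ± 0.075 (adjusted P = 0.018) and 0.30 ± 0.086 (adjusted P = 0.0044), each under the fold change threshold. At day 7 vehicle was at 66.2, 57.0, 53.2 and 57.5 CPM, and C70 was lower, at 45.5, 40.1, 41.5 and 51.1 CPM (-0.39 ± 0.071, adjusted P = 5.6e-05, edgeR). Without vehicle replicate 1 that difference was -0.32 (adjusted P = 0.00022) and no longer passed the fold change threshold. The change of the effect from day 2 to day 7 was -0.69 ± 0.11 (adjusted P = 1.7e-05), and -0.63 without that sample. Ergic1 overlaps Dusp1 on the opposite strand and was at 227 ± 11.7 CPM in vehicle (SD, n = 4) and 254 ± 3.74 CPM after C70 (SD, n = 4) at day 7. Its part in the Dusp1 counts was not tested.

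The metallothionein genes Mt1 (chr8:94179082-94180327, plus strand) and Mt2 (chr8:94172664-94173568, plus strand) encode small cysteine-rich proteins that bind zinc and copper, and are induced by metals and by glucocorticoids. Both were lower after C70 at days 2 and 7. At day 0 Mt2 was higher after C70, at 135 to 142 CPM against 114 to 117 CPM in vehicle. Mt1 overlapped at day 0, at 370 to 392 CPM after C70 and 353 to 380 CPM in vehicle. Mt1 vehicle samples were at 720, 730 and 689 CPM at day 1 and at 819, 850 and 819 CPM at day 2, while C70 samples were at 618, 661, 625 and 626 CPM and then at 441, 485, 494 and 471 CPM. Mt2 vehicle samples were at 243, 256 and 249 CPM at day 1 and at 386, 404 and 422 CPM at day 2, while C70 samples were at 260, 248, 254 and 257 CPM and then at 178, 201, 201 and 202 CPM. Both genes therefore went down between day 1 and day 2 after C70, and Mt2 went up in vehicle. The step was -0.42 ± 0.076 for Mt1 and -0.38 ± 0.071 for Mt2 after C70, against 0.22 ± 0.087 (adjusted P = 0.031, under the fold change threshold) and 0.70 ± 0.081 in vehicle. C70 against vehicle at day 2 was -0.81 ± 0.081 for Mt1 (adjusted P = 8.2e-10) and -1.05 ± 0.075 for Mt2 (adjusted P = 7.3e-13, edgeR). C70 samples averaged 57.0% of vehicle for Mt1 and 48.4% for Mt2. From day 1 to day 2 the effect changed by -0.64 ± 0.12 for Mt1 (adjusted P = 0.00014) and by -1.08 ± 0.11 for Mt2 (adjusted P = 2.0e-08, interaction contrasts).

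By day 7 both metallothioneins had reached their highest levels in each treatment. Mt1 was at 2712, 1925, 1953 and 2103 CPM in vehicle and at 1207, 1577, 1290 and 1292 CPM after C70. Mt2 was at 1440, 1094, 1116 and 1152 CPM in vehicle and at 732, 932, 762 and 718 CPM after C70. No C70 sample reached the lowest vehicle sample for either gene, and the differences were -0.70 ± 0.075 for Mt1 (adjusted P = 8.7e-09) and -0.61 ± 0.069 for Mt2 (adjusted P = 2.1e-08, edgeR). Without vehicle replicate 1, the highest in both, they were -0.57 and -0.51. For Mt2 the effect was smaller in size at day 7 than at day 2, by 0.44 ± 0.10 (adjusted P = 0.0014), and for Mt1 the change was 0.11 ± 0.11 (adjusted P = 0.47). At day 2 the adipocyte markers were lower after C70 as well, with 8 of 10 called lower beside 13.6% of all genes. At day 7 none was called lower by edgeR (1 at an unadjusted P under 0.05) and 2 were called higher, beside 4.85% and 14.3% of all genes. Their sum at day 7 was 31941 to 35375 CPM after C70 and 28984 to 34533 CPM in vehicle. Of 8 preadipocyte and fibroblast markers with counts, 7 were called higher after C70 at day 2 and 8 at day 7, beside 16.9% and 14.3% of all genes, with sums at day 7 of 7366 to 8769 CPM against 3379 to 4500 CPM. The part of either list in the metallothionein values was not tested. Mt1 and Mt2 are close paralogs whose reads the counting could have divided between them. Gm45774, antisense to Mt2, was at 3.75 ± 0.24 CPM in vehicle (SD, n = 3) and 2.06 ± 0.91 CPM after C70 (SD, n = 4) at day 2. Its part in the Mt2 counts was not tested.

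The ratio of Mt1 to Mt2 counts moved with time and with treatment. In vehicle it was 3.16 ± 0.093 at day 0, 2.86 ± 0.098 at day 1, 2.05 ± 0.10 at day 2 (SD, n = 3 each) and 1.80 ± 0.062 at day 7 (SD, n = 4). After C70 it was 2.76 ± 0.058, 2.48 ± 0.13, 2.42 ± 0.068 and 1.71 ± 0.064 (SD, n = 4 each). The C70 ratio was thus below vehicle at days 0 and 1 and above it at day 2, with no overlap of the samples on those days, and the samples overlapped at day 7. No test was made of these ratios.

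**Figure D3:**
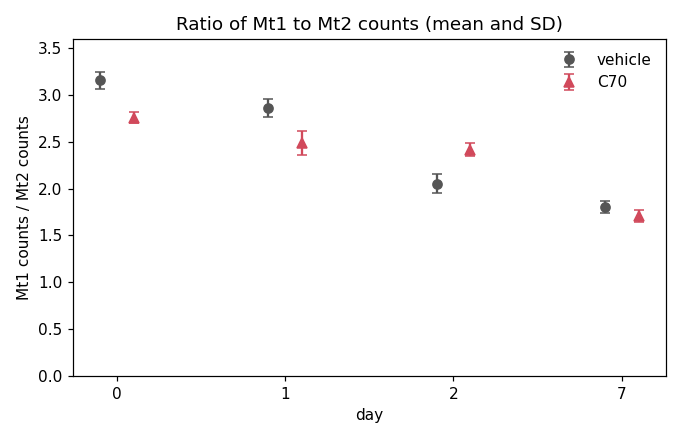
Ratio of Mt1 to Mt2 counts by day (x axis), with circles for vehicle and triangles for C70, as mean and SD over 3 or 4 samples. The ratio went from 3.16 to 1.80 in vehicle between day 0 and day 7, and the order of the treatments was turned at day 2.

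The sequences before the Mt2 and Mt1 starts are shown because the genes moved together and metal response elements (MREs) are the known metal-sensing sites of this family. The MRE core TGCNCNC, on either strand, was found in 44.4% of the 32851 windows, and 4 or more copies were in 1.28%. The Mt2 window at chr8:94172368-94172617 held 5 copies, at 223, 178, 128, 113 and 50 bases before the start. The Mt1 sequence at chr8:94178839-94179081, which ends at the annotated first exon, held 1, beginning 23 bases before the start used by RefSeq. Neither held the GRE arm, which says only that these letters were not in the window. Sequence past these starts was not searched, so the numbers of copies are those of the windows and not of whole promoters. MRE cores are in capitals.
Mt2: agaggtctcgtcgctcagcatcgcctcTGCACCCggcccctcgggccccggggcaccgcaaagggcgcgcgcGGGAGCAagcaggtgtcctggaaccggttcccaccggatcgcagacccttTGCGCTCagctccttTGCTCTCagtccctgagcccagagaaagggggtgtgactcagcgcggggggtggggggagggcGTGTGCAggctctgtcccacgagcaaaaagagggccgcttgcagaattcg
Mt1: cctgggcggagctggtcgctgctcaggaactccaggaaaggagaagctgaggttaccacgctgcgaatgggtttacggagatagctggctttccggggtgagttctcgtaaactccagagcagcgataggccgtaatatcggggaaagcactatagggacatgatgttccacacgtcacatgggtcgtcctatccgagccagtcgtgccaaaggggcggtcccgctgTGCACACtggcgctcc

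Of 15 genes listed for zinc handling, 14 had counts. Beside the 21.4%, 30.5% and 19.1% of all genes called on days 1, 2 and 7, after C70 1 was higher at day 1, 2 were higher and 1 was lower at day 2, and 1 was higher at day 7, or 2 at day 7 without vehicle replicate 1. The importer Slc39a14 was higher on each of these days, by 0.68 ± 0.069, 0.94 ± 0.069 and 0.50 ± 0.065 on the log2 scale. The importer Slc39a6 was higher at day 2 (0.49 ± 0.065) and Slc30a9, a zinc transporter, was lower (-0.37 ± 0.037). The list's median was 0.02 at day 2 and at day 7, beside 0.00 over all genes.

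Between days, most of the genes counted were called within each treatment, though not always the same ones, and so was a large share of all genes. From day 0 to day 1, with Hsd11b1 left out, 8 of 9 genes were called in vehicle, 6 higher and 2 lower, beside 54.1% of all genes (26.2% higher and 27.9% lower). After C70 the count was also 8 of 9, with 6 higher and 2 lower, beside 52.6% (25.8% higher and 26.8% lower). The genes that rose in both treatments were Fkbp5, Tsc22d3, Zbtb16, Dusp1, Mt1 and Mt2, and Nr3c1 and Sgk1 fell in both. From day 1 to day 2, 6 of 10 were called in vehicle, 4 higher and 2 lower, beside 44.3% of all genes (22.3% higher and 22% lower), and 6 of 10 after C70, 2 higher and 4 lower, beside 36.9% (18.8% higher and 18.1% lower). From day 2 to day 7, 9 of 10 were called in vehicle, 8 higher and 1 lower, beside 53.3% (26.6% higher and 26.7% lower), and 7 of 10 after C70, all higher, beside 54.8% (27.6% higher and 27.2% lower). Steps that follow each other share the samples of the day between them. Medians over the 9 genes were 1.11 in vehicle and 0.88 after C70 for the first day, beside 0.01 over all genes in each treatment. For the step from day 2 to day 7 the medians over the 10 genes were 0.91 and 0.78, beside 0.00 and -0.01.

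The C70 effect changed between day 1 and day 2 for 4 of 10 genes, Hsd11b1, Tsc22d3, Mt1 and Mt2, beside 13.8% of all genes. Between day 2 and day 7 it changed for Hsd11b1, Sgk1, Dusp1 and Mt2, again 4 of 10, beside 20.9%. For Fkbp5 the changes were -0.05 (95% interval -0.15 to 0.05) and 0.00 (-0.10 to 0.10), and for Zbtb16 they were -0.01 and 0.00 with wider intervals of -0.31 to 0.30 and -0.29 to 0.29.

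**Figure D4:**
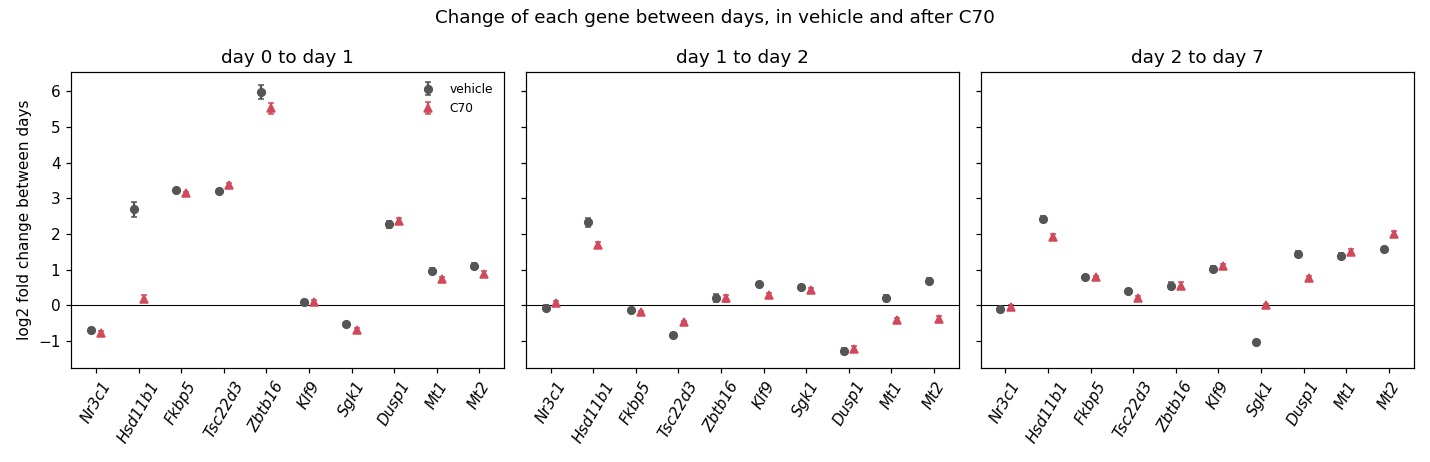
Log2 fold change between successive days for each gene, with 1 SE, in vehicle (circles) and after C70 (triangles). The first panel shows the shared rises of Fkbp5, Tsc22d3, Zbtb16 and Dusp1 (the Hsd11b1 values there are a description), the middle panel the opposite steps of Mt2, and the last panel the fall of Sgk1 in vehicle beside 0.01 after C70.

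Levels can be compared between genes only per length of exon. In vehicle at day 0 Mt1 and Mt2 stood at 293 ± 10.7 and 197 ± 2.12 CPM per kb (SD, n = 3), and Klf9, Nr3c1, Sgk1 and Fkbp5 between 30.4 and 15.2. Hsd11b1 and Zbtb16 were lowest, at 0.24 ± 0.11 and 0.27 ± 0.085. In vehicle at day 7 Mt2 (2041 ± 275, n = 4) and Mt1 (1744 ± 295) were again highest, followed by Fkbp5 at 224 ± 4.01, Klf9 at 100 ± 11.1, Tsc22d3 at 68.1 ± 5.41 and Hsd11b1 at 42.3 ± 4.85 CPM per kb. Sgk1 was lowest, at 9.40 ± 0.45. The exon union used for Mt1, 1246 bases, covers the whole gene, and that used for Mt2 was 588 bases. The order of Mt1 and Mt2 per kb depends on these lengths. In counts Mt1 was 1.80 times Mt2 in vehicle at day 7.

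Of 25 other genes listed as induced by glucocorticoids, 24 had counts, and 20 rose while 3 fell from day 0 to day 1 in vehicle, where 26.2% of all genes rose and 27.9% fell. Their median step was 1.87, beside 0.01 over all genes. Lcn2, which encodes an iron-binding secreted protein, rose by 6.49 ± 0.16 and Glul, glutamine synthetase, by 5.78 ± 0.058. Fam107a, an actin-associated protein gene, went from a mean of 0.06 CPM to 126 CPM. A gene nearly absent at day 0, such as Fam107a, passed the filter on low genes through later samples. Its rise was thus set in advance. The list was also chosen with earlier results of these data known, so the counts of this step are a description. After C70, 5 of the 24 were called higher at day 1, 13 at day 2 and 4 at day 7, and the numbers called lower were 1, 3 and 2. Of all genes 13.6%, 16.9% and 14.3% were higher and 7.8%, 13.6% and 4.85% lower on these days. At day 1 the number higher was 8 without vehicle replicate 2. Lcn2 (1.54 ± 0.084), Sult1a1, a sulfotransferase (1.19 ± 0.12), and Pdk4, a kinase that restrains glucose oxidation (0.89 ± 0.068), led at day 1. Pdk4 (1.32 ± 0.070), Fam107a (1.31 ± 0.061) and Sult1a1 (0.67 ± 0.089) led at day 2. Fam107a (0.74 ± 0.054), Sult1a1 (0.60 ± 0.072) and Mertk, a receptor tyrosine kinase (0.58 ± 0.058), led at day 7. The list's median was 0.18, 0.39 and 0.02 on the 3 days, beside -0.01, 0.00 and 0.00 over all genes. With a 1.5-fold threshold 5 were higher at day 2. Adipocyte markers were called lower after C70 for 8 of 10 at days 1 and 2 and none at day 7 by edgeR. Preadipocyte and fibroblast markers were called higher for 4, 7 and 8 of 8 on the 3 days, and 1 was called lower at day 1. The part of both marker lists in the values of the induced genes was not tested.

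Of 12 inflammatory genes listed as repressed by glucocorticoids 5 had counts, and 5 of 5 fell from day 0 to day 1 in vehicle, where 27.9% of all genes fell, with a median of -2.94. The largest falls were in Mmp3 and Mmp13, matrix metalloproteinases, at -3.28 ± 0.18 and -3.03 ± 0.14, and in Csf1, a macrophage growth factor, at -2.94 ± 0.069. These genes also fell after C70, with a median of -1.80. The filter on low genes is not given. A gene low after day 0, such as Mmp3, may have passed it through its day 0 level. Its fall would then be partly set in advance, so the counts of this step are a description. C70 against vehicle was called higher for 5 at day 1, 4 at day 2 and 3 at day 7, beside 13.6%, 16.9% and 14.3% of all genes. Of the 8 preadipocyte and fibroblast markers 4, 7 and 8 were called higher after C70 on the same days, and 1 was called lower at day 1. From day 0 to day 1 in vehicle, 7 of these markers fell. The macrophage marker Cd68 was higher after C70 at days 1 and 2 as well. The part of these markers in the values of the inflammatory genes was not tested. Mmp3 was higher by 1.89 ± 0.19, 2.17 ± 0.20 and 2.50 ± 0.48 on the 3 days, at means of 1.66, 1.26 and 0.14 CPM in vehicle. Mmp13 was higher by 1.04 ± 0.13 at day 1 and 1.38 ± 0.28 at day 7, and Cxcl1, a chemokine, by 1.07 ± 0.21 at day 1. Csf1 was higher by 1.09 ± 0.075 at day 2 and 0.63 ± 0.063 at day 7, and Vcam1, an adhesion molecule, by 0.83 ± 0.045 at day 2. When a CPM over 1 in every sample was required, 2 of the 5 were left, Csf1 and Vcam1, of which 2 were called higher at days 1 and 2 and 1 at day 7.

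Of 12 receptor chaperones 12 had counts. In vehicle 7 rose and none fell by edgeR from day 0 to day 1 (0 lower at an unadjusted P under 0.05, and 0 by DESeq2 or limma voom), led by Hsph1 (1.27 ± 0.064), Hspa8 (0.75 ± 0.055) and Ppid (0.66 ± 0.055), beside 26.2% of all genes that rose. After C70 3 of 12 were called higher over this step, a share near the 25.8% of all genes, and 9 were not called. The list's median was 0.16 after C70 and 0.48 in vehicle. C70 against vehicle was called lower for 3 at day 1, Hsph1 (-0.49 ± 0.058), Stip1 (-0.43 ± 0.047) and Fkbp4 (-0.39 ± 0.062), for none at day 2 and for 6 at day 7, where 7.8%, 13.6% and 4.85% of all genes were lower. Those at day 7 included Hsph1 (-0.69 ± 0.055), Hsp90aa1 (-0.46 ± 0.040) and Hspa8 (-0.46 ± 0.048). At day 2 an adjusted P value under 0.05 alone gave 4 lower and 2 higher, an unadjusted P under 0.05 gave 5 lower and 2 higher, DESeq2 and limma voom called 0, and 1 was called lower without C70 replicate 3. Medians were -0.11, -0.09 and -0.29, beside -0.01, 0.00 and 0.00 over all genes. On the same days 8, 8 and none of the 10 adipocyte markers were called lower by edgeR. Of the 8 preadipocyte and fibroblast markers, 4, 7 and 8 were called higher on these days, and 1 was called lower at day 1. The part of both marker lists in the chaperone values was not tested. Of 13 receptor coregulators, each with counts, 1 was lower at days 1 and 2 (7.8% and 13.6% of all genes), Ncoa1 (-0.35 ± 0.076 and -0.44 ± 0.073), and 1 was higher at day 7 (14.3% of all genes), Nrip1 (0.38 ± 0.090). The count at day 1 was 0 without vehicle replicate 2, that at day 2 was 2 without vehicle replicate 1, and that at day 7 was 0 without vehicle replicate 1.

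**Figure D5:**
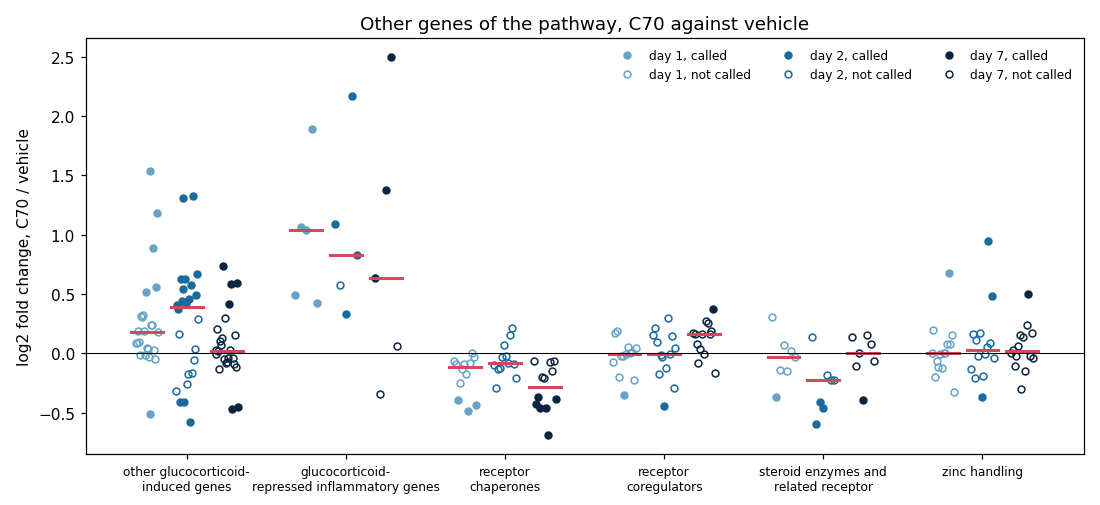
Log2 fold change of C70 against vehicle for the other genes of the pathway, by list, at days 1, 2 and 7 from left to right within each list. Filled points passed the test and the fold change threshold, open points did not, and red lines are medians, which were 0.39 for the other glucocorticoid-induced genes at day 2 and -0.29 for the receptor chaperones at day 7.

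As a description of shared patterns, the genes outside the 10 whose log2 CPM followed each member most closely over the 29 samples were found by Pearson correlation. These samples share days and treatments, and the correlations carry no test. Fkbp5 was followed by Bcl6 (r = 0.995) and Glul (0.995), and Zbtb16 by Bcl6 (0.992) and Fam107a (0.991). Tsc22d3 was followed by Tob2 (0.988) and Rhou (0.986), and Klf9 by Plpp6 (0.989) and Acadsb (0.987). Mt1 was followed by Gpi1 (0.984) and Gapdh (0.979), and Mt2 by Ldha (0.989) and Sun2 (0.984). Nr3c1 was followed by Adgrg6 (0.979) and Rock2 (0.973), and Dusp1 by Nfil3 (0.961) and Errfi1 (0.949). Hsd11b1 (Anxa8, 0.953, and Chrnb2, 0.949) and Sgk1 (Bhlhb9, 0.896, and Cyth3, 0.871) had less close matches.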

How the data were processed

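RNA-seq of 3T3-L1 cells was analysed from 1 table of whole-number counts per gene and sample. The counts were deposited by the authors, who aligned reads with STAR 2.7.2a to GRCm38. The submitters' processing notes name edgeR 3.26.8. The table is named as normalized, but its totals differ between samples and its values are whole numbers. The labels call the library kit strand-specific; the counting program, its use of strand and the filter on low genes are not given in the sources used here. Symbols were found for 11953 of 11959 genes.

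Counts were normalized by TMM (factors 0.898 to 1.08) and fitted with edgeR 4.0.16 in R 4.3.3, by the quasi-likelihood test, two-sided, with 8 group means over all 29 samples and no covariate. Within each comparison, the Benjamini-Hochberg adjustment ran over all genes. SE is the absolute log2 fold change divided by the square root of F. The common biological coefficient of variation was 0.0594. In simulated counts for C70 against vehicle at day 2, 198 of 200 genes changed 2-fold were recovered, with 6 false calls. Coordinates were taken from the GENCODE annotation of GRCm38 and promoters from RefSeq on GRCm38.p6, with printed stretches ending where protein-coding exons begin. CPM per kb used the length of the union of exons.

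The 10 genes, the other lists and the alternatives were chosen with earlier results of these data known. Named from the lists were up to 3 called genes with the largest absolute log2 fold change in each comparison printed, and for patterns the 2 genes with the highest r of log2 CPM (prior count 2). Alternatives were other thresholds, scalings, filters and models, DESeq2 1.42.0, limma 3.58.1, fits within a day, a replicate block and leaving out each sample. Tables and plots used Python 3.11.15, pandas 2.3.3 and matplotlib 3.10.9.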

Additional observations from a re-analysis of the deposited data

Results flagged for a closer look

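Among 50 sets of 4 samples examined for the 10 genes, 4 held a sample far from the other 3, where chance gives about 2.5. Vehicle replicate 1 at day 7 was the highest for Hsd11b1, at 210.5 CPM, and for Mt2, at 1440 CPM. C70 replicate 4 at day 7 was the lowest for Klf9, at 412 CPM. C70 replicate 1 at day 2 was the lowest for Mt2, at 178 CPM.

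The C70 effect differed between days by interaction contrasts. From day 1 to day 2 the log2 change of the effect was -0.64 for Hsd11b1, 0.36 for Tsc22d3, -1.08 for Mt2 and -0.64 for Mt1. From day 2 to day 7 it was -0.51 for Hsd11b1, 1.02 for Sgk1, -0.69 for Dusp1 and 0.44 for Mt2. For Sgk1 the samples moved in opposite directions relative to vehicle on these days, being 73.8% of vehicle on average at day 2 and 150% at day 7. The causes were not tested.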

How the results depend on the processing

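The number of the 10 genes called for C70 against vehicle was 4 at day 1 with an adjusted P value under 0.05 alone and 1 with a fold change over 1.5. With a fold change over 1.5 it was 3 at day 7, 2 for C70 from day 1 to day 2, and 2 for the change of the effect from day 2 to day 7. These settings change the threshold itself. The other alternatives kept each count of called genes within 1.5 times, and leaving out single samples gave 2 to 3 at day 1, 5 to 6 at day 2 and 5 to 6 at day 7. With the replicate block in the fit of all samples the counts were 2, 5 and 6, and it changed no call; within a day, Tsc22d3 at day 1 was called with and without the block. Same-numbered samples did not deviate together (r -0.205 to 0.214, median 0.00469, 13 pairs of samples). For differently numbered samples r was -0.252 to 0.326 (median -0.00796, 39 pairs). Pairing by number was thus not seen, though so few values cannot exclude it.

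Signs turned for differences that were not called, and for none that was. Without scaling factors they were -0.045 for Fkbp5 and -0.028 for Mt2 at day 1 and -0.17 for Sgk1 after C70 from day 2 to day 7. With quantile normalization they were -0.12 for Fkbp5 and -0.015 for Mt2 at day 1, 0.037 for Fkbp5 at day 2, -0.018 for Nr3c1 after C70 from day 1 to day 2, and -0.015 for Sgk1 after C70 from day 2 to day 7. Leaving out single samples gave -0.055 to 0.17 for Zbtb16 at day 7, -0.17 to 0.0079 for Nr3c1 in vehicle from day 2 to day 7, and -0.0039 to 0.036 for Sgk1 after C70 from day 2 to day 7. Without scaling factors or with quantile normalization, Tsc22d3 from day 2 to day 7 in vehicle was 0.29 and 0.27, under the fold change threshold. Among the C70 against vehicle calls, requiring a fold change over 1.5 ended those of Sgk1 at days 1 and 2, and of Hsd11b1, Tsc22d3 and Dusp1 at day 7. The causes were not tested. Hsd11b1 and Zbtb16 at day 0 rest on fewer than 50 counts per vehicle sample, which limits the precision of their ratios.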
